A study of Mus musculus with 2 samples.

Results

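The nuclear genes of respiratory complexes II to V were taken by symbol. They comprise the succinate dehydrogenase genes Sdha, Sdhb, Sdhc and Sdhd, every symbol that starts with Uqcr, Cox4, Cox5, Cox6, Cox7, Cox8 or Atp5, and the cytochrome genes Cyc1 and Cycs. In all, 46 of the 14371 genes listed in either library met this rule. Complex II had 4 genes, complex III 9, cytochrome c 1, complex IV 16 and complex V 16. The Wt table listed 45 of them, and Cox4i2 was listed in the Gata3KO table only.

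The electron transport chain sits in the inner mitochondrial membrane. Complex II passes electrons from succinate, complex III hands them to the small soluble carrier cytochrome c, complex IV delivers them to oxygen, and complex V makes ATP from the proton gradient that results. The mitochondrial genome encodes part of the catalytic core of complexes III and IV and membrane subunits of complex V, whereas complex II and cytochrome c are wholly nuclear. Macrophages are known to shift between glycolytic and oxidative metabolism as inflammation proceeds in damaged muscle.

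Each genotype was represented by 1 library of single cells, and the study compared phagocytes of the inflamed muscle between both genotypes. The Wt library came from C57BL/6 mice. The Gata3KO library came from mice labelled C57BL/6:Cx3cr1CRExGata3fl/fl, in which Cre is driven by Cx3cr1, a gene of monocytes and macrophages among other cells, and both Gata3 alleles are floxed. In both, the tibialis anterior had received 50 µl of 10 µM cardiotoxin, a snake toxin that destroys muscle fibres, and live CD45+ CD11b+ Ly6G- cells were sorted on day 4. A load of 8000 cells was given for each library. No source used here gives the number of animals, their pooling or their age. With 1 library per genotype, cells are not replicates and no difference between genotypes was tested: the intervals below cover the 95% counting error of UMIs only, a UMI being 1 captured transcript.

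The targeted gene gave no check of the labels. Gata3 had 4 UMIs in the kept cells of the Wt library (0.481 CPM, which is UMIs per 1000000 UMIs counted) and 1 UMI in those of the Gata3KO library (0.103 CPM), and a 3′ tag outside the deleted part would report nothing on the deletion. The Wt library held 3290 barcodes with a median of 2616 UMIs, and the Gata3KO library 3434 barcodes with a median of 3059. Keeping barcodes of 500 or more UMIs, 200 or more genes and no more than 10% mitochondrial UMIs left 990 Wt and 650 Gata3KO cells, none with a barcode in common. Of the sort's markers, Ptprc (CD45) stood at 849.1 and 583.0 CPM and Itgam (CD11b) at 148.8 and 185.4 CPM, and Ly6g was listed in neither table. Clusters were built without the 46 genes, without complex I genes and without mitochondrial transcripts. Clusters of cells led by collagens (34 Wt and 22 Gata3KO cells) and by skeletal muscle genes (31 and 3 cells) remained, and no doublets were called.

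Levels of the 46 genes were read in 5 clusters taken as monocytes and macrophages, with 438 Wt and 463 Gata3KO cells. They were an interferon-responding-like state (219 Wt and 39 Gata3KO cells), a stress and chemokine-like state (68 and 158), an unnamed state led by Npl and Lpcat2 (93 and 120), a resident-like state (35 and 71) and a lipid-handling-like state (23 and 75). The largest cluster of the class therefore differed between the libraries, being the interferon-responding-like state in Wt and the stress and chemokine-like state in Gata3KO, and the former, mostly of 1 library, may be that library and not a type. Its name rests on 3 markers among its 10 leading genes. Its highest marker score was that of the MHC class II-high macrophage list, at 0.476 against 0.457 for the interferon list. The 7 genes of the former list summed to 35460 CPM in its Wt cells and 42940 CPM in its Gata3KO cells. Unnamed clusters of low UMI count, kept out of the class by a limit set after the data were seen, held 307 Wt and 108 Gata3KO cells. The class also differed in depth, with a median of 9024 UMIs per Wt cell and 17069 per Gata3KO cell, and in its marker lists. The summed level of 8 interferon-response genes was 2558 CPM in Wt and 331 CPM in Gata3KO, that of 8 inflammatory monocyte genes 1809 and 1039 CPM, and that of 7 lipid-handling genes 13570 and 18520 CPM; the part of these differences in the values below was not tested.

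Several of the genes come as pairs or triplets whose proteins fill the same place in a complex, and the 3′ counts had to tell such copies apart. The last 84 coding bases of 5 such genes, stop codon included, are shown so that the copies can be compared. Whether the counted reads fell in these stretches was not examined. The stretches are read 5′ to 3′ on the coding strand from the GENCODE vM21 transcripts (GRCm38), and all lie within the last exon. Capitals mark the bases that differ among the genes shown together. Cox6a1, the form of subunit 6a found in most tissues, lies at chr5:115345843-115345926 (minus strand, exon 3 of 3), and Cox6a2, the heart and skeletal muscle form, at chr7:128205729-128205812 (minus strand, exon 3 of 3).
Cox6a1: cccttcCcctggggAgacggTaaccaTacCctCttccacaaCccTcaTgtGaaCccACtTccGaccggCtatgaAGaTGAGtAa
Cox6a2: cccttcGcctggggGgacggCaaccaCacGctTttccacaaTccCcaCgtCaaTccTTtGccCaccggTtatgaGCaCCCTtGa
Both matched at 61 of the 84 bases (72.6%), and the longest run shared anywhere in their transcripts was 12 bases.

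Atp5g1, Atp5g2 and Atp5g3 encode the same mature subunit c, the rotating ring of ATP synthase, behind different import sequences. Their stretches lie at chr11:96073104-96073187 (exon 5 of 5), chr15:102663014-102663097 (exon 4 of 4) and chr2:73908593-73908676 (exon 5 of 5), all on the minus strand.
Atp5g1: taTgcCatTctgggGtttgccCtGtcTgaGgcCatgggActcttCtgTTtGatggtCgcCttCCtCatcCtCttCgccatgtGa
Atp5g2: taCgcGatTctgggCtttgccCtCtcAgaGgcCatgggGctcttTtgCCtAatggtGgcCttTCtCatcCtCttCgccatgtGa
Atp5g3: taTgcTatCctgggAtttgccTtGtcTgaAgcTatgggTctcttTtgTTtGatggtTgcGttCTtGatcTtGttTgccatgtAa
Atp5g1 and Atp5g2 matched at 72 of 84 bases (85.7%), Atp5g1 and Atp5g3 at 68 (81.0%) and Atp5g2 and Atp5g3 at 62 (73.8%). The longest runs shared in the transcripts were 21, 11 and 8 bases, so a longer read cannot match any pair of them exactly. Many genes of the chain also have processed copies elsewhere in the genome, and no source used here says how the authors' counting divided reads with them.

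The nuclear genes of complexes II to V took a slightly larger share of UMIs in the monocytes and macrophages of the Gata3KO library. Their summed level was 13260 CPM (13160 to 13360) in Wt and 14380 CPM (14300 to 14460) in Gata3KO, or 1.326% and 1.438% of all UMIs, a log2 ratio of 0.12 (0.10 to 0.13). Of the 46 genes, 40 were measured, which required 20 CPM in 1 library and 20 UMIs over both. Among them, 35 were higher and 5 lower in the Gata3KO library, where 56.4% of all 5884 measured genes were higher. The median log2 ratio of the 40 genes was 0.12 and that of all measured genes 0.05. Sizes were small: 1 gene was higher by at least 25% (16.4% of all measured genes were) and 1 was lower by at least 20%, the same distance on the log scale (15%), and none differed by 1.5-fold. Thinning every cell to 2000 UMIs gave a log2 ratio of 0.22 for the sum, weighting every cell alike 0.20 and reclustering every deposited barcode 0.23, whereas limits of 1000 UMIs and 5% mitochondrial UMIs gave 0.06.

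**Figure D1:**
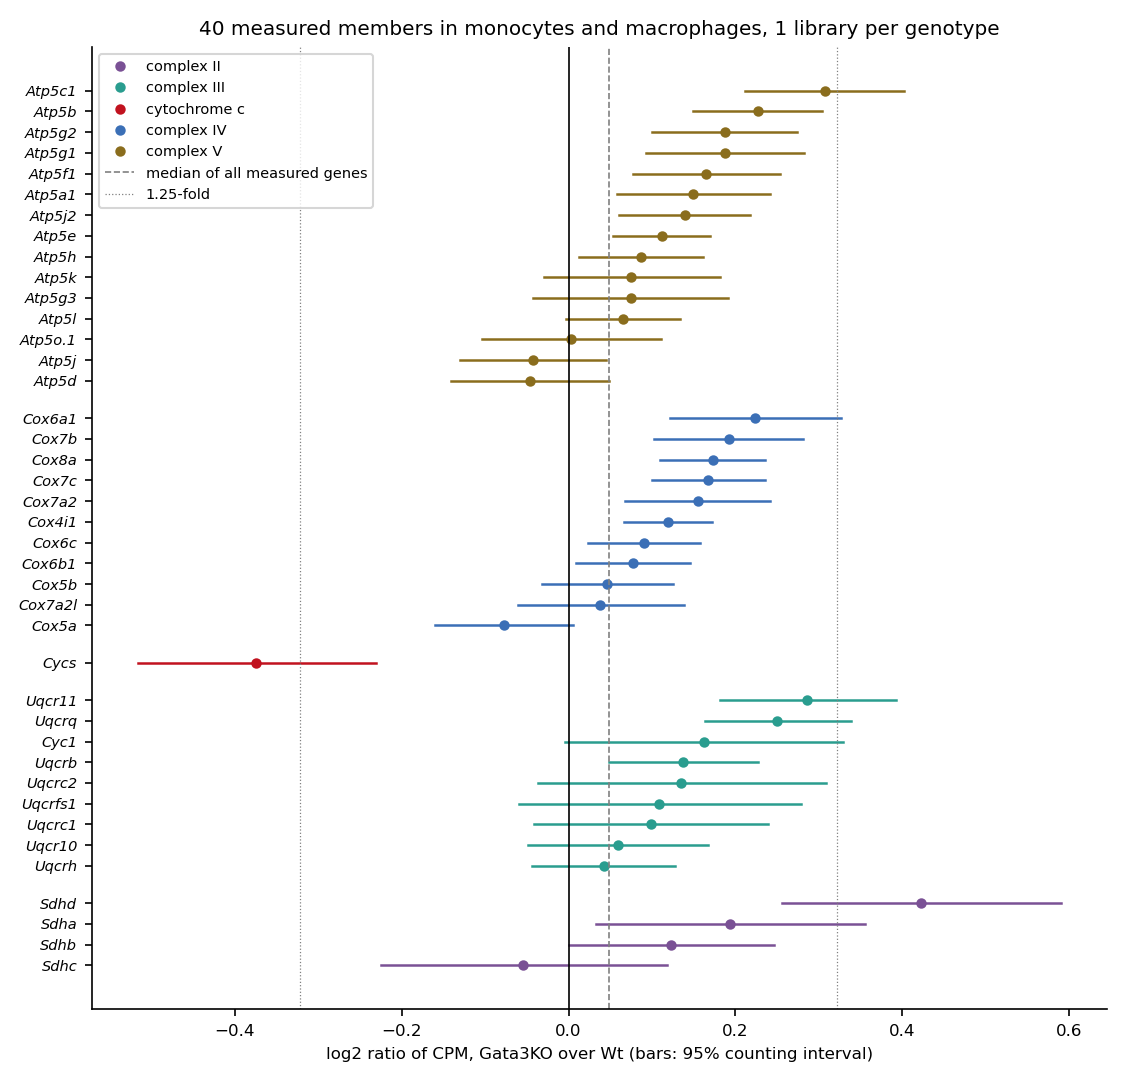
Log2 ratio of CPM, Gata3KO over Wt, for each of the 40 measured genes in monocytes and macrophages, 1 library per genotype, grouped by complex; points are ratios, bars 95% counting intervals, the dashed line the median of all measured genes and the dotted lines levels 25% higher and 20% lower. Cycs at -0.37 is the lowest and Sdhd at 0.42 the highest, and most other points lie between 0 and 0.31.

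Complex II, succinate dehydrogenase, links the citric acid cycle to the chain. Its 4 genes summed to 455.0 CPM in Wt and 511.2 CPM in Gata3KO, a log2 ratio of 0.17 (0.09 to 0.24). Its genes did not share 1 direction. Sdhd, 1 of the membrane anchors, stood at 88.3 CPM in Wt and 118.3 CPM in Gata3KO, a log2 ratio of 0.42 (0.26 to 0.59). That was the only measured member higher by at least 25%, and its ratio lay between 0.33 and 0.82 under the 11 alternatives, all of the same sign. Sdhc, the other anchor, was at 94.0 and 90.5 CPM, a log2 ratio of -0.05 (-0.23 to 0.12). Sdha, the flavin subunit that oxidizes succinate, was at 99.9 and 114.3 CPM, and Sdhb, the iron-sulfur subunit, at 172.8 and 188.2 CPM, with log2 ratios of 0.19 and 0.12. Sdhb was lower in the Gata3KO library, at a log2 ratio of -0.12, with the limits of 1000 UMIs and 5% mitochondrial UMIs.

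All 9 genes of complex III, the cytochrome bc1 complex, were measured and all were higher in the Gata3KO library. Their sum was 1874 CPM in Wt and 2074 CPM in Gata3KO, a log2 ratio of 0.15 (0.11 to 0.18). The largest differences were in small supernumerary subunits: Uqcr11 was at 223.0 and 272.0 CPM, a log2 ratio of 0.29 (0.18 to 0.39). Uqcrq followed at 327.4 and 389.5 CPM, a log2 ratio of 0.25 (0.16 to 0.34). The electron-carrying subunits differed less and their intervals reached 0. Cyc1, cytochrome c1, was at 94.2 and 105.4 CPM, a log2 ratio of 0.16 (-0.004 to 0.33). Uqcrfs1, the Rieske iron-sulfur protein, was at 92.8 and 100 CPM, a log2 ratio of 0.11 (-0.06 to 0.28). The core proteins Uqcrc1 and Uqcrc2 had log2 ratios of 0.10 and 0.14. The smallest was in Uqcrh, the hinge protein at the cytochrome c1 contact, at 361.9 and 372.5 CPM (0.04), and Uqcrb and Uqcr10 lay at 0.14 and 0.06.

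Cytochrome c itself went the other way. Cycs (ENSMUSG00000063694, chr6:50562563-50566538, minus strand), which carries electrons from complex III to complex IV and triggers apoptosis when released, stood at 147.9 CPM (137.3 to 159.0) in Wt and 114.1 CPM (106.8 to 121.8) in Gata3KO. The log2 ratio was -0.37 (-0.52 to -0.23), the lowest among the 40 measured genes. It kept its sign under all 11 alternatives, from -0.73 with the limits of 1000 UMIs and 5% mitochondrial UMIs to -0.16 with every deposited barcode reclustered. Cycs UMIs were found in 247 of 438 Wt cells (56.4%) and in 312 of 463 Gata3KO cells (67.4%), the Gata3KO cells being the deeper ones, so that the share of cells and the CPM ran in opposite directions and no order is read from the share.

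Complex IV, cytochrome c oxidase, gave a sum of 5291 CPM in Wt and 5732 CPM in Gata3KO, a log2 ratio of 0.12 (0.09 to 0.14). Of 11 measured genes, 10 were higher and 1 lower in the Gata3KO library. Cox4i1, the subunit that binds ATP as a regulator, was the most abundant of all 46 genes at 933.6 and 1014 CPM, a log2 ratio of 0.12 (0.07 to 0.17). Cox6a1 was at 240.0 and 280.3 CPM, the largest difference in the complex at a log2 ratio of 0.22 (0.12 to 0.33). Cox8a, the smallest subunit, was at 642.0 and 723.9 CPM (0.17), and Cox7b, Cox7c and Cox7a2 gave 0.19, 0.17 and 0.16. Cox5a was the 1 gene below 0, at 399.7 and 378.8 CPM with a log2 ratio of -0.08 (-0.16 to 0.01). Its partner in the complex, Cox5b, was at 427.4 and 441.3 CPM (0.05). Cox6b1, which faces cytochrome c, was at 561.1 and 591.9 CPM (0.08), and lay at -0.01 with the limits of 1000 UMIs and 5% mitochondrial UMIs. Cox6c gave 0.09. Cox7a2l, a relative of Cox7a2 described as a factor that joins complexes III and IV, was at 266.4 and 273.6 CPM with a log2 ratio of 0.04 (-0.06 to 0.14). Whether it has that role in these mice was not tested.

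Complex V, ATP synthase, summed to 5489 CPM in Wt and 5948 CPM in Gata3KO, a log2 ratio of 0.12 (0.09 to 0.14). Of 15 measured genes, 13 were higher and 2 lower in the Gata3KO library. In the catalytic head, Atp5c1, the gamma subunit that forms the rotating shaft, was at 277.1 and 342.8 CPM, a log2 ratio of 0.31 (0.21 to 0.40). Atp5b, the catalytic beta subunit, was at 418.8 and 490.0 CPM (0.23), and Atp5a1, the alpha subunit, at 308.2 and 341.8 CPM (0.15). Atp5d, the delta subunit of the same shaft, did not share this direction, at 299.8 and 290.3 CPM with a log2 ratio of -0.05 (-0.14 to 0.05). Atp5e, the epsilon subunit and the most abundant gene of the complex, was at 751.8 and 812.3 CPM (0.11). Among the genes of the stalk that holds the head still, Atp5f1 (subunit b) was at 0.17, Atp5h (subunit d) at 0.09 and Atp5j (coupling factor 6) at -0.04 on the log2 scale. Atp5o.1, the subunit that confers oligomycin sensitivity, was at 232.2 and 232.8 CPM, and its symbol matched more than 1 gene of the annotation, so no identifier is given for it. Of the small membrane subunits f, e and g, Atp5j2 was at 0.14, Atp5k at 0.08 and Atp5l at 0.07.

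The other genes of oxidative phosphorylation and its surroundings were counted on fixed lists. Of 37 measured nuclear genes of complex I, 29 were higher and 8 lower in the Gata3KO class, with a median log2 ratio of 0.14, close to the 0.12 of complexes II to V. Ndufs8, a core subunit, was the lowest of those at 50 CPM or more (113.0 and 101.4 CPM, -0.16). The 13 transcripts of the mitochondrial genome gave a median of 0.05 with 8 higher and 5 lower; those at 50 CPM or more ranged from mt-Nd3 at 706.9 and 1022 CPM (0.53) to mt-Co1 at 10330 and 8021 CPM (-0.36). Assembly factors stood near 0: 10 of 18 were higher, with a median of 0.02, Coa5 being the lowest at 80.3 and 58.8 CPM (-0.45). Of 8 carriers and membrane partners, 7 were higher (median 0.12), led by the phosphate carrier Slc25a3 at 362.1 and 452.4 CPM (0.32). Citric acid cycle genes were higher in 10 of 12 (median 0.05). Cytosolic ribosomal protein genes, a large set of short and abundant transcripts unrelated to respiration, had a median of 0.10 with 62 of 87 higher. Of 6 measured regulators, 3 were higher. Yy1 was at 109.4 and 122.1 CPM (0.16) and Hif1a at 53.65 and 60.69 CPM (0.18). Others were thinly counted, with Gabpa at 12.5 and 21.9 CPM, Nrf1 at 26.2 and 19.98 CPM and Esrra at 29.3 and 21.0 CPM. Ppargc1a was listed in neither table.

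Promoters were read for the motifs of these regulators because Cycs and Sdhd lay at opposite ends of the measured members. Of 46 genes, 33 had an entry in the RefSeq promoter table (GRCm38.p6), of which the 250 bases before the gene start were searched on both strands. GCATGCGC, the paired NRF1 site, was present in 6 of 33 members (18.2%), in 4.8% of the promoters of all listed genes and in 2.6% of all promoters in the table. CCGGAAG, bound by GABP and other ETS factors, was present in 9 of 33 (27.3%), 15.1% and 7.8%. AAGATGGCG, a YY1 site, was present in 1 of 33 (3.0%), 1.4% and 0.7%, and the GC box GGGCGG in 9 of 33 (27.3%), 61.5% and 35.4%. The 250 bases before Cycs (chr6:50566570-50566819, minus strand) and before Sdhd (chr9:50603850-50604099, minus strand) are shown 5′ to 3′ toward the gene, with the matched motif in capitals. Positions count from the RefSeq gene start, which lies upstream of the GENCODE start behind the gene coordinates given here. In Cycs it was GCATGCGC, starting 60 bases before that start, and in Sdhd CTTCCGG, the reverse complement of CCGGAAG, 46 bases before it. A match is a string of letters and not a site of binding.
Cycs: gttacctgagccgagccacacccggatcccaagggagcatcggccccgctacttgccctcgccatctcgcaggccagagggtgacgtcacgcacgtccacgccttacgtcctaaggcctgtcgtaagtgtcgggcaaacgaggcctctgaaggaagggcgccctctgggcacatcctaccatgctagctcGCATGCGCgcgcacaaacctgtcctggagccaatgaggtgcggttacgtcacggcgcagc
Sdhd: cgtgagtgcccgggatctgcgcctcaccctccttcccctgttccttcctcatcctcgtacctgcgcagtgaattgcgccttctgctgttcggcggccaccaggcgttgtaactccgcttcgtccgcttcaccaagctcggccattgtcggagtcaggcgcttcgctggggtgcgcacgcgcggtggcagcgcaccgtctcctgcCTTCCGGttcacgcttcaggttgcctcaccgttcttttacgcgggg

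Across states, the level of the 46 genes varied more than between genotypes. In Wt, the summed level was 11970 CPM in the interferon-responding-like state, 12500 CPM in the stress and chemokine-like state, 13990 CPM in the Npl and Lpcat2 state, 14330 CPM in the lipid-handling-like state and 16520 CPM in the resident-like state. In Gata3KO the values in the same order were 13220, 12830, 15290, 15300 and 15770 CPM. Resident-like cells were thus the highest in both libraries, while the lowest were the interferon-responding-like cells in Wt and the stress and chemokine-like cells in Gata3KO. The counting intervals of the Npl and Lpcat2 state and the lipid-handling-like state overlapped in both libraries, as did those of the interferon-responding-like and the stress and chemokine-like state in Gata3KO.

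**Figure D2:**
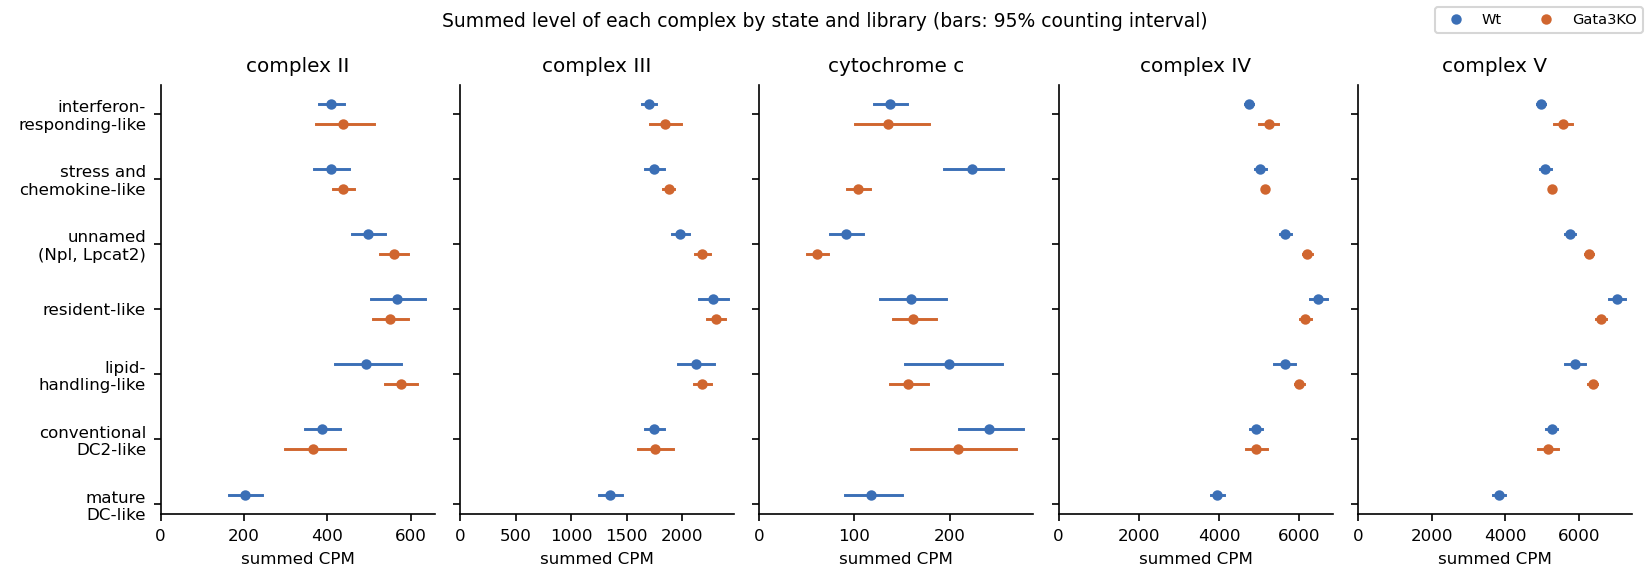
Summed CPM of complexes II, III, IV and V and of cytochrome c by cluster and library; points are sums over cells, bars 95% counting intervals, and mature dendritic-like cells are drawn for Wt only, since the Gata3KO library held 10 of them. Among the 7 states drawn, resident-like cells were highest and mature dendritic-like cells lowest in Wt for each of complexes II to V, whereas cytochrome c was highest in conventional dendritic 2-like cells and lowest in the Npl and Lpcat2 state.

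Set against the interferon-responding-like state, the resident-like state had 38 of 40 measured members higher in Wt (52.5% of all measured genes were) and 36 of 40 in Gata3KO (53.2%). The median log2 differences were 0.49 and 0.26, with 0.04 and 0.06 for all genes. The order depended on the filter on cells: with every deposited barcode reclustered, the log2 ratio of the sum in Wt was -0.05 in place of 0.46, and with a mitochondrial limit of 20% it was 0.87. Set against the stress and chemokine-like state, 37 of 40 members were higher in resident-like cells in Wt (55.9% of all genes) and 40 of 40 in Gata3KO (55.2%), with medians of 0.44 and 0.30. Lipid-handling-like cells were higher than stress and chemokine-like cells in 32 of 40 members in Wt (54.9%) and 38 of 40 in Gata3KO (56.6%), with medians of 0.27 and 0.31. Cox6a2, which passed the filter through the lipid-handling-like Gata3KO cells alone, was left out of these counts.

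Between genotypes within a state, the direction was not uniform. In the interferon-responding-like state the summed log2 ratio was 0.14 (0.10 to 0.19), with 35 of 40 members higher (51.5% of all genes) and 2 higher by at least 25% (27.6%); it rested on 39 Gata3KO cells and was -0.10 with a mitochondrial limit of 20%. Interferon-response genes summed to 3709 CPM in its Wt cells and 1199 CPM in its Gata3KO cells, and inflammatory monocyte genes to 1901 and 4516 CPM, the opposite order to the class; their part was not tested. In the Npl and Lpcat2 state the summed ratio was 0.13 (0.10 to 0.16), with 31 of 40 higher (51.1%). In the lipid-handling-like state it was 0.09 (0.05 to 0.14), with 26 of the 40 members measured in the class higher (51.0%), over 23 Wt cells. These 3 states resembled the class as a whole. The stress and chemokine-like state lay near 0, at 0.04 (0.01 to 0.07), with 21 of 40 members higher (54.3% of all genes).

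The resident-like state had a lower level in the Gata3KO library. Its sum was 16520 CPM in Wt (35 cells) and 15770 CPM in Gata3KO (71 cells), a log2 ratio of -0.07 (-0.10 to -0.03). Of 40 members, 15 were higher (50.6% of all genes) and 3 were lower by at least 20% (25.9%), a smaller share than among all genes. Complex IV summed to 6475 and 6155 CPM (-0.07) and complex V to 7038 and 6604 CPM (-0.09). The cluster also differed in other respects: resident genes summed to 2586 CPM in Wt and 6343 CPM in Gata3KO, cycling genes to 1134 and 541.6 CPM, and the median mitochondrial share was 6.23% and 3.86%; their part was not tested. The log2 ratio was 0.08 at a Leiden resolution of 0.5 and 0.06 with every barcode reclustered. The former was also the value of the Npl and Lpcat2 and lipid-handling-like states, and the latter that of the stress and chemokine-like state. Resident-like cells were thus not read apart from those states, and their own sign under these clusterings is not known. Differences between states in the genotype ratio were not tested.

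Cycs had its own pattern over states. In Wt it was at 90.7 CPM in the Npl and Lpcat2 state, 137.0 in the interferon-responding-like, 159.1 in the resident-like, 199.2 in the lipid-handling-like and 223.5 CPM in the stress and chemokine-like state. In Gata3KO the values in the same order were 60.2, 135.3, 162.0, 156.6 and 103.9 CPM. The Npl and Lpcat2 state, in which all 46 genes summed above the class value, was thus the lowest for Cycs in both libraries. The gap between genotypes lay mostly in the stress and chemokine-like state, where the log2 ratio was -1.11 (-1.36 to -0.84), from 207 UMIs in 68 Wt cells and 302 UMIs in 158 Gata3KO cells. A second gap lay in the Npl and Lpcat2 state, at -0.59 (-0.98 to -0.21). The ratios in the interferon-responding-like and resident-like states were -0.02 (-0.49 to 0.43) and 0.03 (-0.34 to 0.41).

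In the stress and chemokine-like state, Cycs UMIs were found in 56 of 68 Wt cells (82.4%) and 123 of 158 Gata3KO cells (77.8%). The 5 Wt cells with the most held 31.9% of the Wt UMIs, up to 21 in 1 cell, and the 5 such Gata3KO cells 12.3%, up to 8. Without those 5 cells of each library the values were 181.3 and 95.9 CPM, a log2 ratio of -0.92 (-1.22 to -0.61). Under other clusterings and filters on cells the ratio ran from -1.12 to -0.66. With every barcode reclustered and at a mitochondrial limit of 20%, this state had the same summed ratio as another. Its Cycs values there may cover other cells. These alternatives were chosen after the data were seen. Marker levels differed within this state as well. Inflammatory monocyte genes summed to 4611 CPM in Wt and 922.2 CPM in Gata3KO, interferon-response genes to 3428 and 332.4 CPM and resident genes to 1578 and 3925 CPM, and the part of these in the Cycs gap was not tested.

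**Figure D3:**
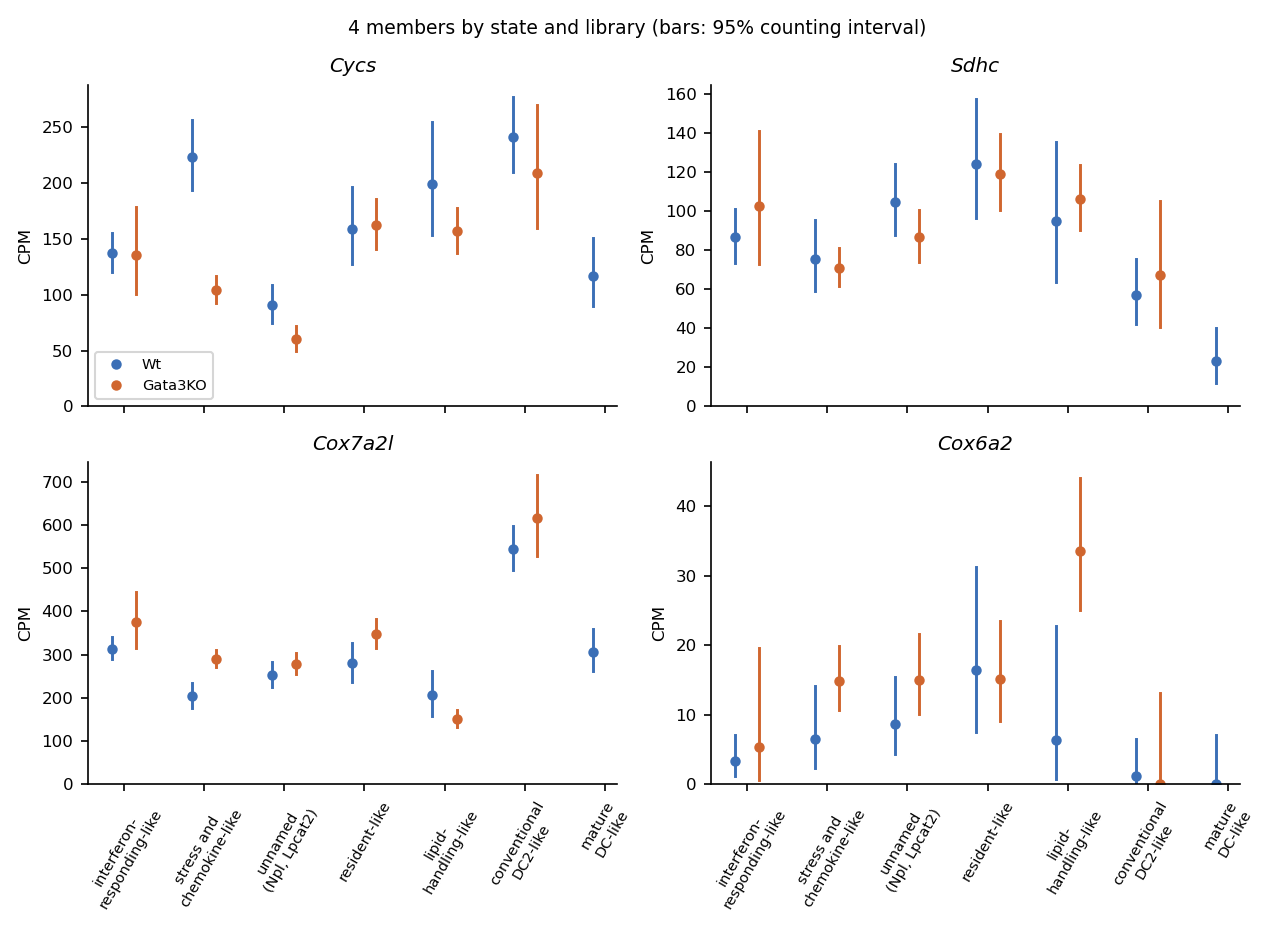
CPM of Cycs, Sdhc, Cox7a2l and Cox6a2 by cluster in the Wt and Gata3KO libraries; points are sums over cells and bars 95% counting intervals, with mature dendritic-like cells shown for Wt only. Cycs differed most in the stress and chemokine-like state, Cox7a2l was highest in conventional dendritic 2-like cells, and Cox6a2 was highest in lipid-handling-like cells of the Gata3KO library.

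A few other members departed from the shared pattern. Sdhd, with the highest ratio of the measured members in the class, had its largest gap in the Npl and Lpcat2 state at 89.9 and 139.0 CPM, a log2 ratio of 0.63 (0.31 to 0.96). In the resident-like state it was at 111.5 and 127.1 CPM, and in the interferon-responding-like state at 82.2 and 86.6 CPM. Atp5c1 was higher in the Npl and Lpcat2 state at 264.9 and 373.4 CPM (0.50) and in the interferon-responding-like state at 267.9 and 370.7 CPM (0.47). Cox7a2l, at a log2 ratio of 0.04 in the class, was at 204.0 and 290.1 CPM in the stress and chemokine-like state, a log2 ratio of 0.51 (0.28 to 0.74). It was at 313.9 and 376.1 CPM in the interferon-responding-like state (0.26, -0.02 to 0.53) and at 279.8 and 347.8 CPM in the resident-like state (0.31, 0.04 to 0.59). In the lipid-handling-like state alone it was lower, at 205.5 and 150.8 CPM (-0.45, -0.85 to -0.03). With the shares of the states held equal between libraries, its class ratio was 0.25.

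Dendritic cells set the members apart further. Conventional dendritic 2-like cells (100 Wt and 29 Gata3KO) had nearly the same sum in both libraries, 12560 and 12410 CPM, with 19 of the 40 members measured in the class higher (45.6% of all genes). Against monocytes and macrophages of the same library, 29 of 40 members were lower in Wt (45.1% of all genes) and 30 of 40 in Gata3KO (48.7%), with medians of -0.15 and -0.35. Cox7a2l ran against this, at 545.0 CPM in dendritic cells and 266.4 CPM in the class in Wt, and at 616.9 and 273.6 CPM in Gata3KO, log2 differences of 1.03 and 1.17. Cycs was also higher there, at 241.6 and 209.2 CPM (0.71 and 0.87 over the class). Uqcrh was higher at 527.5 and 574.4 CPM (0.54 and 0.63), and Uqcrfs1 at 136.5 and 148.9 CPM (0.56 and 0.57). Members that were lower included Uqcrb of complex III at -0.62 and -1.12 and Atp5g1 of complex V at -0.41 and -0.97. Not all of complex V was lower, since Atp5c1 was at 354.8 and 382.9 CPM there and at 277.1 and 342.8 CPM in the class. Cox6b2, a form known from testis, was counted at 15.2 and 24.8 CPM in dendritic cells and 3.89 and 5.99 CPM in the class, from only 13 and 7 UMIs in the dendritic cells.

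Mature dendritic-like cells, read in Wt only (75 cells), had the lowest level of any named immune state. Their sum was 9467 CPM, a log2 difference of -0.49 (-0.53 to -0.44) from the class. Of 40 members, 37 were lower, 21 of them by 1.5-fold (39.6% of all genes were). All measured genes also lay lower in these cells, with a median log2 difference of -0.27 against -0.62 for the members. Complex II stood lowest, at 201.6 CPM against 455.0 CPM (-1.17, -1.47 to -0.89). Its anchor Sdhc had 12 UMIs, 23.0 CPM against 94.0 CPM (-2.03, -2.99 to -1.21), and Sdhb was at 65.3 CPM (-1.40). Complexes III, IV and V gave -0.47, -0.42 and -0.52. The 3 members that were higher were Uqcrfs1 at 126.7 CPM (0.45), Uqcrh at 447.4 CPM (0.31) and Cox7a2l at 307.2 CPM (0.20), which were also higher in conventional dendritic 2-like cells.

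The 3 genes of subunit c shared their counts differently by state. In monocytes and macrophages, Atp5g1, Atp5g2 and Atp5g3 gave 34.9%, 41.4% and 23.7% of their joint UMIs in Wt and 35.5%, 42.2% and 22.3% in Gata3KO. Atp5g2 led in conventional dendritic 2-like cells with 53.2% (49.5 to 57.0) in Wt and 55.1% (48.0 to 62.1) in Gata3KO. In lipid-handling-like cells its share was 32.4% (27.0 to 38.2) and 36.5% (34.1 to 38.9), and Atp5g1 led with 39.4% and 39.2%. The shares followed the state more than the genotype. In the resident-like state Atp5g3 gave 26.4% in Wt and 20.4% in Gata3KO.

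**Figure D4:**
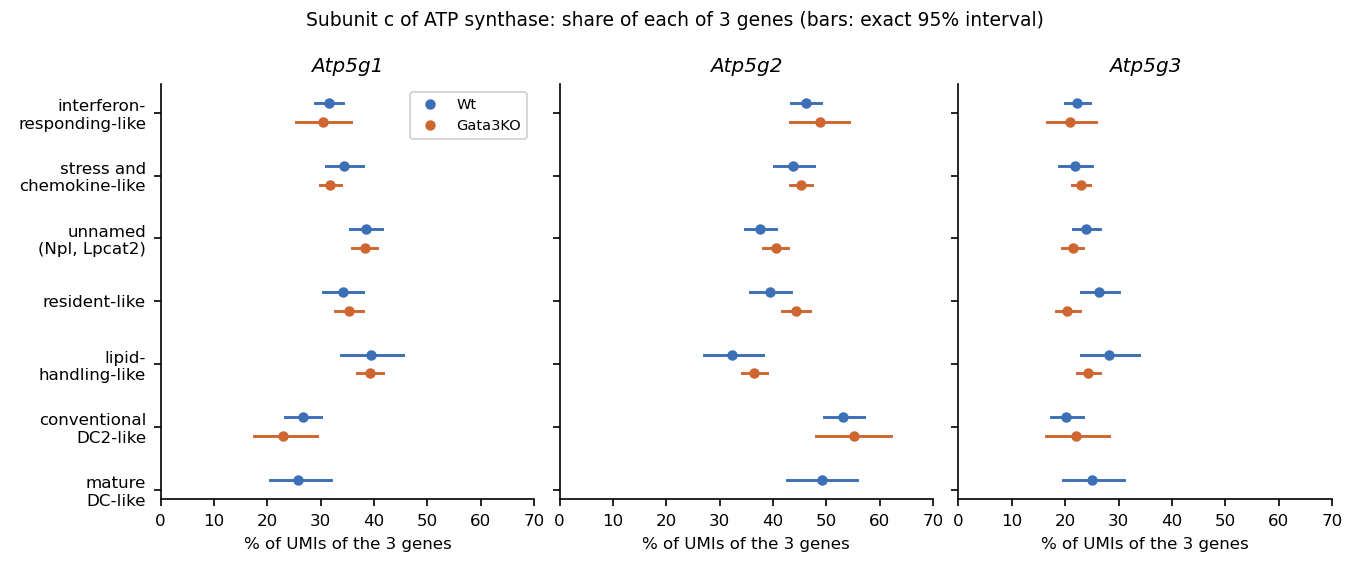
Percent of the joint UMIs of Atp5g1, Atp5g2 and Atp5g3 that each gene gave, by cluster and library; points are shares of summed UMIs and bars exact 95% binomial intervals, with mature dendritic-like cells for Wt only. Atp5g2 runs from 32.4% in lipid-handling-like Wt cells to 55.1% in conventional dendritic 2-like Gata3KO cells.

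Of the 46 genes, 6 were below the filter in the class: Cox4i2, Cox6a2, Cox6b2, Cox7a1, Cox8b and Atp5s. Cox4i2, the lung form of subunit 4, had 0 and 3 UMIs, and Atp5s, a coupling factor, 24 and 32 UMIs. Cox6a2, Cox7a1 and Cox8b are the heart and skeletal muscle forms of their subunits. Cox6a2 had 34 UMIs in Wt (6.96 CPM) and 145 UMIs in Gata3KO (18.1 CPM), a log2 ratio of 1.38 (0.83 to 1.96), and gave 2.82% and 6.07% of all Cox6a UMIs. Cox7a1 had 50 and 116 UMIs, at 10.2 and 14.5 CPM (0.50, 0.01 to 1.01). Cox8b had 4 and 1 UMIs.

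Muscle RNA in the class went the other way. The summed level of 7 skeletal muscle genes was 147.4 CPM in Wt and 52.1 CPM in Gata3KO, each with all 7 genes above 0, and actin Acta1 was at 47.9 and 16.4 CPM. Per 100 UMIs of those 7 genes, the class held 4.72 Cox6a2 UMIs in Wt and 34.8 in Gata3KO, while the muscle-like cluster held 0.232 in its 31 Wt cells and 0.477 in its 3 Gata3KO cells. For Cox7a1 these were 6.94 and 27.8 in the class and 0.290 and 0.106 in the muscle-like cluster. For Cox8b they were 0.556 and 0.240 in the class, from 4 and 1 UMIs, and 0.639 and 0.0531 in the muscle-like cluster. That cluster was itself led by Acta1, Myog, Mylpf, Tnnc2 and Tnnt3, genes of the same list, so its ratios are low by selection. It held only 4 and 9 Cox6a2 UMIs and 5 and 2 Cox7a1 UMIs. The comparison is therefore not read further, and the source of the Cox6a2 and Cox7a1 UMIs in the class was not tested.

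Cox6a2 was highest in lipid-handling-like cells of the Gata3KO library, with 52 UMIs in 22 of 75 cells (29.3%) and 33.7 CPM, or 9.92% (7.5 to 12.8) of Cox6a UMIs. The 23 Wt cells of that state held 2 UMIs, 6.32 CPM, and the log2 ratio of 2.41 had an interval of 0.49 to 5.50. Over the class, a Cox6a2 UMI was found in 29 of 438 Wt cells (6.62%) and 87 of 463 Gata3KO cells (18.8%). After thinning to 2000 UMIs, which left out 26 and 35 cells, the shares were 0.971% of 412 Wt cells and 2.57% of 428 Gata3KO cells. Few cells held a UMI at that depth, and no order is read from these shares. In conventional dendritic 2-like cells it was found in 1 of 100 Wt cells (1.0%, median 8572 UMIs) and in 0 of 29 Gata3KO cells, for which 3 counts of 29 allow up to 10.3% of cells with a UMI. Cox7a1 was found in 8.90% and 20.3% of the class and in 0 of 100 conventional dendritic 2-like Wt cells, for which 3 counts of 100 allow up to 3.0%.

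The low-UMI barcodes carried far less of the members. In the 3 unnamed clusters of low UMI count, 40 of 40 members were lower than in the class by 1.5-fold in both libraries (37.3% of all genes in Wt and 36.1% in Gata3KO), with medians of -1.54 and -1.63. Complex IV was lower there by more than complex II, at -1.72 and -2.01 against -1.39 and -1.26. The direction between genotypes depended on which barcodes were counted. Over every deposited barcode, the sum was 9984 CPM in Wt and 9517 CPM in Gata3KO (-0.07), and 31 of 40 members were lower in Gata3KO (45.1% of all genes). In the kept cells it was 12590 and 14010 CPM, a log2 ratio of 0.15 (0.14 to 0.17), and in the 2300 Wt and 2784 Gata3KO barcodes left out 6914 and 5068 CPM, -0.45 (-0.47 to -0.43).

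**Figure D5:**
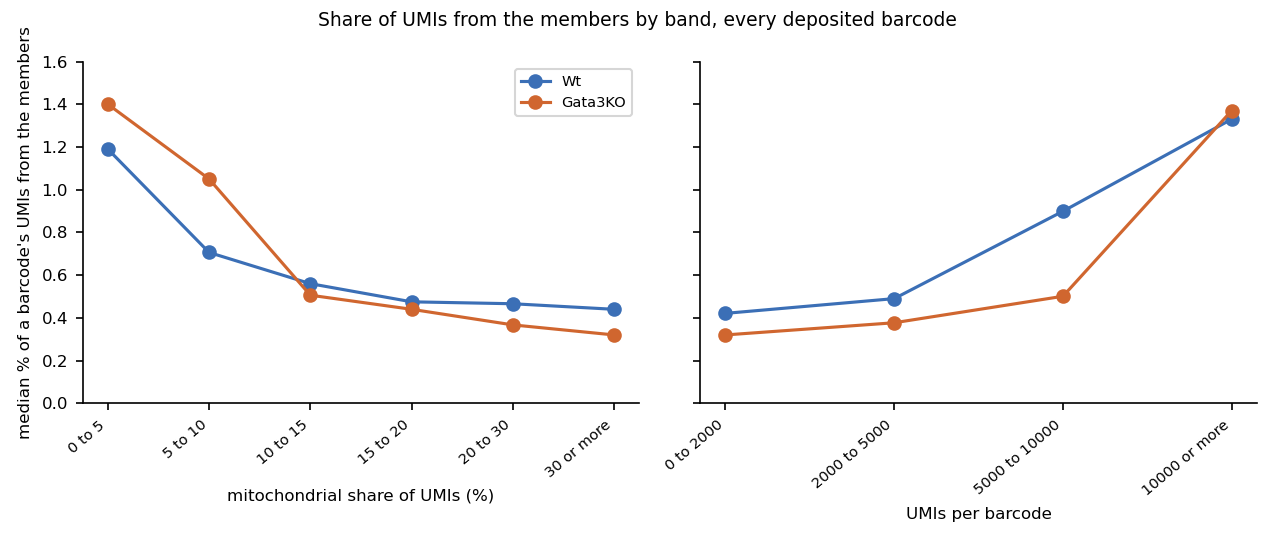
Median percent of a barcode's UMIs that came from the 46 genes, over every deposited barcode, by mitochondrial share (left) and UMIs per barcode (right) in each library. The Gata3KO median was above that of Wt below 10% mitochondrial UMIs (1.4 against 1.19 in the lowest band) and below it in every band from 10% upwards (0.320 against 0.440 in the highest).

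Per cell, the members took a median of 1.22% of UMIs in Wt monocytes and macrophages (quartiles 0.926 and 1.46) and 1.38% in Gata3KO (1.17 and 1.59). Thinned to 2000 UMIs, the medians were 1.2% and 1.35%, a gap between medians of about the same size, while the quartiles overlapped. The log2 ratio of the summed level did change with this thinning, from 0.12 to 0.22. By state the Wt median was highest in resident-like cells at 1.66%, which stood at 1.48% in Gata3KO, where lipid-handling-like cells were highest at 1.53%. It was lowest among named states in mature dendritic-like Wt cells, at 0.782%. The median mitochondrial share in the class was 5.09% in Wt and 4.21% in Gata3KO. Within the band of 0 to 5% mitochondrial UMIs, the log2 ratio over all barcodes was 0.11, and within 5 to 10% it was 0.20.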

How the data were processed

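Per the labels' protocols, 10x Chromium Single Cell 3′ libraries were made from sorted cells. The deposited tables hold raw UMI counts per gene and barcode, made by the authors. The submitters' processing notes name the build mm10 and the tools R 3.6.1, Cell Ranger 3.0.1 and Seurat 3.0.2, with settings not given in the sources used here. All 46 genes, the marker lists and the pathway lists were chosen with earlier results of these data known.

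Barcodes with at least 500 UMIs, 200 genes and at most 10% mitochondrial UMIs were kept. Counts scaled to 10000 per cell and log-transformed were clustered on 2000 variable genes (30 components, 15 neighbours, Leiden resolution 1.0; scanpy 1.11.5, leidenalg 0.10.2, Python 3.11.15) without the 46 genes, complex I genes and mitochondrial transcripts. A cluster was called X-like with at least 2 markers of a fixed list among its 10 leading genes. Clusters entered the monocyte and macrophage class when a list of that class gave their highest marker score, with a limit of 0.4 set after the data were seen. Clusters named after another cell type were left out, as were those of low UMI count without a marker among their leading genes.

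UMIs were summed per cluster and library and given as CPM. Intervals are 95% Poisson for levels, exact conditional binomial for ratios and Clopper-Pearson for shares (scipy 1.17.1); where no cell had a UMI, the limit is 3 counts of the cells. They cover counting error only; no test was made. The interval calculation was checked on simulated data. Genes were measured with 20 CPM in 1 library and 20 UMIs over both; states were compared with at least 20 cells of each library. Per complex, genes at 50 CPM or more with the highest and lowest ratio and the highest level were named, as were those higher by 25% or lower by 20% and members of isoform families at that level; other members are named for completeness. Alternatives changed the cell filter, resolution, scaling, cell weights, depth, state shares, class and CPM filter.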

Additional observations from a re-analysis of the deposited data

Results flagged for a closer look

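The log2 ratio of the summed genes, Gata3KO over Wt, differed in sign between states. It was 0.143 in the interferon-responding-like, 0.037 in the stress and chemokine-like, 0.128 in the Npl and Lpcat2 and 0.094 in the lipid-handling-like state, but -0.066 in resident-like cells. For complex IV the values were 0.140, 0.133 and 0.092 in the interferon-responding-like, Npl and Lpcat2 and lipid-handling-like states and -0.073 in resident-like cells. For complex V they were 0.162, 0.048, 0.125 and 0.116 in the interferon-responding-like, stress and chemokine-like, Npl and Lpcat2 and lipid-handling-like states and -0.092 in resident-like cells. With 1 library per genotype these differences between states were not tested. Under 2 other clusterings the resident-like value was positive but the same as that of other states, so it does not report on resident-like cells alone.

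Kept cells and the barcodes left out also gave opposite signs, 0.154 and -0.448 for the summed genes. This difference was not tested either. The sign turned at the limit of 10% mitochondrial UMIs, with log2 ratios of 0.11 and 0.20 in the bands below it and -0.26, -0.23, -0.39 and -0.44 in those above.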

How the results depend on the processing

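No paired analysis was possible because each genotype has 1 library. Depth and cell quality limit the values most: the class ratio of the summed genes kept its sign under all 11 alternatives (0.062 to 0.233), as did that of Cycs (-0.729 to -0.156) and Sdhd (0.329 to 0.824), whereas Atp5d, Atp5g3 and Sdhc kept theirs in 7 of 11, Cox7a2l and Uqcrh in 9, and Cox5a, Cox6b1 and Sdhb in 10. The median of all genes was 0.048, and totals without mitochondrial and ribosomal genes gave a class ratio of 0.126. Where a value below differs from the report, the cause was not tested.

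Log2 ratios for the class are given for all genes first. With every cell thinned to 2000 UMIs they were 0.218, with complexes II to V at 0.360, 0.236, 0.200 and 0.229; 12 members were higher by at least 25% and 0 lower by at least 20%, as counted below too. With cells weighted alike they were 0.198, with complexes II, IV and V at 0.278, 0.201 and 0.203; 5 members were higher and 0 lower. With every barcode reclustered they were 0.233, with complexes III to V at 0.254, 0.229 and 0.238 and Cycs at -0.156; 9 members were higher and 0 lower. With all kept cells they were 0.154, with complexes II, IV and V at 0.272, 0.161 and 0.146, and 3 members were higher (1175 of 6133 measured genes were). With 1000 UMIs and 5% mitochondrial UMIs as limits they were 0.062, with complexes II, IV and V at 0.041, 0.054 and 0.072, Cycs at -0.729, and Cox6b1 and Sdhb reversed at -0.008 and -0.120. A mitochondrial limit of 20% gave 0.148, with complexes IV and V at 0.145 and 0.149 and 0 members lower. Median-of-ratios scaling gave 0.070, with complexes III to V at 0.099, 0.068 and 0.068. Equal state shares gave 0.080, with complexes III to V at 0.097, 0.079 and 0.085 and 2 members higher. Without the CPM filter 4 members were higher and 2 lower. The count over all measured genes is given for all kept cells only. The other counts of members are therefore not read as results about them.

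Within states, the Npl and Lpcat2 ratio was 0.081 at resolution 0.5, 0.099 with the stricter limits, 0.178 thinned, 0.249 with every barcode and 0.214 at 20%. The lipid-handling-like ratio was the same at resolutions 0.5 and 1.5, with the stricter limits and with every barcode. Where states give the same value, it does not report on either alone. The resident-like ratio was 0.081 at resolution 0.5, again the value of those states, and 0.059 with every barcode, also that of the stress and chemokine-like state. It was -0.111 thinned and -0.254 at 20%. The interferon-responding-like ratio was 0.020 with every barcode, also the value of conventional dendritic 2-like cells, and reversed to -0.103 at 20%. The stress and chemokine-like ratio was 0.001 at resolution 1.5 and 0.161 thinned, and the lipid-handling-like ratio 0.246 thinned, 0.249 with every barcode and 0.047 at 20%. At 20% the stress and chemokine-like ratio was also 0.047. In Wt, resident-like over interferon-responding-like cells gave 0.285 at resolution 0.5, as did lipid-handling-like cells, 0.535 at 1.5, 0.532 thinned and 0.869 at 20%. With every barcode they gave -0.049, where neither state was read apart from others. Lipid-handling-like over interferon-responding-like cells gave 0.309 at 1.5, 0.184 with the stricter limits, 0.211 thinned, 0.048 with every barcode and 0.497 at 20%. The limits from shared values apply to this comparison too. Mature dendritic-like cells over the class gave -0.190 with every barcode and -0.368 at 20%. With every barcode, Cox6a2, Cox7a1 and Cox8b together stood at 28.5 CPM in the Gata3KO class (32.7 in the kept cells), and at 48.8 and 34.7 CPM in the muscle-like cluster of Gata3KO and Wt (108 and 89.4).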

Other observations

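The mitochondrially encoded subunits were counted beside the nuclear ones of the same complex. In monocytes and macrophages, the 3 mitochondrial transcripts of complex IV gave 5.66 UMIs per nuclear UMI of that complex in Wt and 4.46 in Gata3KO. For complex V the values were 1.76 and 1.55, and for complex III, where mt-Cytb is the only such transcript, 1.47 and 1.62. In the largest unnamed cluster of low UMI count, complex IV gave 30.5 and 30.6, and conventional dendritic 2-like cells 3.54 and 4.51.

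Fibroblast-like cells, led by collagen genes in a gate for CD45+ CD11b+ cells, held a summed level of 18090 CPM of the 46 genes in Wt (34 cells) and 14320 CPM in Gata3KO (22 cells), a log2 ratio of -0.34. The medians per cell did not follow the sums, at 1.39% of UMIs in Wt and 1.43% in Gata3KO. Cycling genes were high in both, at 3634 and 3100 CPM, while endothelial genes stood at 381.7 and 9.61 CPM and skeletal muscle genes at 361.9 and 27.2 CPM, and their part was not tested. Cycs was at 312.6 and 197.1 CPM there, a log2 ratio of -0.67 (-0.98 to -0.36).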
